A study of Mus musculus with 6 samples.

Results

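The genes described here mark the blood vessels of the brain and the cells that lie against them. They are 36 listed genes of endothelial cells, pericytes, vascular smooth muscle and vessel-associated fibroblasts, matched by GENCODE M21 symbol to the 54532 gene identifiers of the deposited counts. They were listed by cell type, but with earlier results of these data known. RNA was sequenced from 6 whole mouse brains on a C57BL/6J background at postnatal day 14, with 1 library per brain and 3 mice per genotype. Per the labels, controls were Mphosph8fl/+ Nestin-Cre+ and mutants, called Mphosph8∆n, were Mphosph8fl/fl Nestin-Cre+, so both groups carried the Cre transgene and at least 1 floxed allele. The study's text names the controls by Cre alone, and the labels were followed. Mphosph8 encodes MPP8, a chromatin protein of the repressive HUSH complex, and its floxed exon 4 is removed in neural progenitors and their descendants. The comparison therefore asks how the vessel compartment looked in brains whose neural lineage had been exposed to Cre with both alleles floxed. Whether any vessel cell carried the deletion was not measured.

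Brain capillaries are lined by endothelial cells whose tight junctions, efflux pumps and nutrient transporters form the blood-brain barrier. Pericytes share a basement membrane with this endothelium, smooth muscle cells wrap arteries and arterioles, and fibroblasts lie around larger vessels and in the meninges. Most endothelial, mural and fibroblast cells derive from mesoderm or neural crest and not from the neural progenitors in which Nestin-Cre acts. They make up a small share of a whole brain, and in bulk tissue fewer cells of a type and less RNA per cell cannot be told apart.

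Sequence is shown for 3 members on which the results below turn. Slco1a4 had the smallest p of the 36, Itm2a was the only member whose mutant and control libraries did not overlap, and Acta2 had the interval that reached furthest from 0 and a large spread among mutant brains. The lines give the 250 bases before each gene's RefSeq start (GRCm38.p6, all on the minus strand, 5′ to 3′), at chr6:141856221-141856470, chrX:107403361-107403610 and chr19:34255374-34255623.
Slco1a4: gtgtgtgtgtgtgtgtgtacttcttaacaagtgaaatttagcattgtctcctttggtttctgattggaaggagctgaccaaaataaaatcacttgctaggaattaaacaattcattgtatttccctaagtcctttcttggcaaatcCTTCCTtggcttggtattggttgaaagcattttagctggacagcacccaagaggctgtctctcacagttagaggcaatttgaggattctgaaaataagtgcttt
Itm2a: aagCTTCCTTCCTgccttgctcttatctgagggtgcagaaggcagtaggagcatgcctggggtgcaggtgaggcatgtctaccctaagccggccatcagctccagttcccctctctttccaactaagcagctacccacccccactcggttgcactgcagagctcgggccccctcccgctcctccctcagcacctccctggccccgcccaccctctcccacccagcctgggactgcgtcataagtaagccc
Acta2: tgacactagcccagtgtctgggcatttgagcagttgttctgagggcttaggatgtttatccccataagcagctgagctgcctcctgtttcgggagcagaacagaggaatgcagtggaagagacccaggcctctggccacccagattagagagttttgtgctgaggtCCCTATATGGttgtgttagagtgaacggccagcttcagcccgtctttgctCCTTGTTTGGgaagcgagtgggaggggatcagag
Capitals mark AGGAAG or its reverse complement in Slco1a4 and Itm2a, a core of the motif bound by ETS factors, to which the endothelial regulator Erg belongs. In Acta2 they mark CCCTATATGG and CCTTGTTTGG, CArG-type boxes of the kind bound by serum response factor in smooth muscle (searched as CC, 6 letters of which at most 1 is not A or T, and GG, which reads alike on both strands). AGGAAG was searched on both strands, and its pair of matches in Itm2a overlap. AGGAAG was present in 12 of the 29 windows of the 24 members with an entry (41.4%), against 29.5% of all 32851 windows of this length, and so is common. A CArG-type box was present in 6 of the 29 member windows (20.7%), namely those of Acta2, Egfl7, Eng, Kdr, Col1a2 and Slco1a4 (not marked above), against 8.59% of all windows, and Acta2 was the only one of these with 2. A match is a string of letters and no evidence of binding.

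All 36 members passed the filter on low counts, and each had at least 73 counts in every library. The libraries held from 12956880 to 15223424 counts. No pair of replicates was as alike as repeat counts of a single library would be (chi-square per degree of freedom from 3.42 to 12.3). Mphosph8 was at 55.8, 48.6 and 70.7 CPM (counts relative to the normalised library size) in control and 33.1, 27.2 and 26.5 CPM in mutant brains (log2 fold change -1.02 ± 0.12, SE; edgeR adjusted p 0.000158). Control replicate 3 had 3641 counts over 4 Y-linked genes and 27 of Xist, while the other 5 libraries had at most 1 and at least 11130. The labels give no sex, while the study's methods describe its mice as littermates matched for age and sex. Control replicate 1 stood apart by transcript length: its median deviation from the mean of the 6 libraries ran from 0.12 (log2 CPM) in the shortest 3345 genes to -0.074 in the longest 3344. In that library the 18 shorter members (1205 to 4546 exonic bases) had a median deviation of 0.098 and the 18 longer ones (4712 to 13504 bases) -0.063.

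The vessel genes spanned a wide range of levels. Per kilobase of exon, Bsg was the highest in control brains at 513.9 CPM. It encodes basigin, an immunoglobulin-type membrane protein that is abundant in barrier endothelium but is also made by other brain cells. The tight junction gene Cldn5 followed at 107.8 CPM per kb, and then the pericyte gene Rgs5 at 85.1 and the endothelial membrane protein gene Itm2a at 70.7. Vtn, which encodes vitronectin, was at 64.2, the glucose transporter gene Slc2a1 at 48.2 and the lipid transporter gene Mfsd2a at 40.4. The lowest levels were those of the smooth muscle myosin gene Myh11 at 1.07, the sialomucin gene Emcn at 2.16 and the transcription factor gene Sox17 at 2.83 CPM per kb. Every cell type on the list was thus represented, and levels sorted only in part by role. Among the 36, the transcription factor genes ranked 26, 29 and 34 and the smooth muscle genes 27, 31 and 36. Barrier genes ranged from rank 1 to 25 and pericyte genes from rank 3 to 32. The pericyte genes Kcnj8 and Abcc9, at 4.69 and 3.26, lay below the smooth muscle gene Acta2 at 6.25 CPM per kb.

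**Figure D1:**
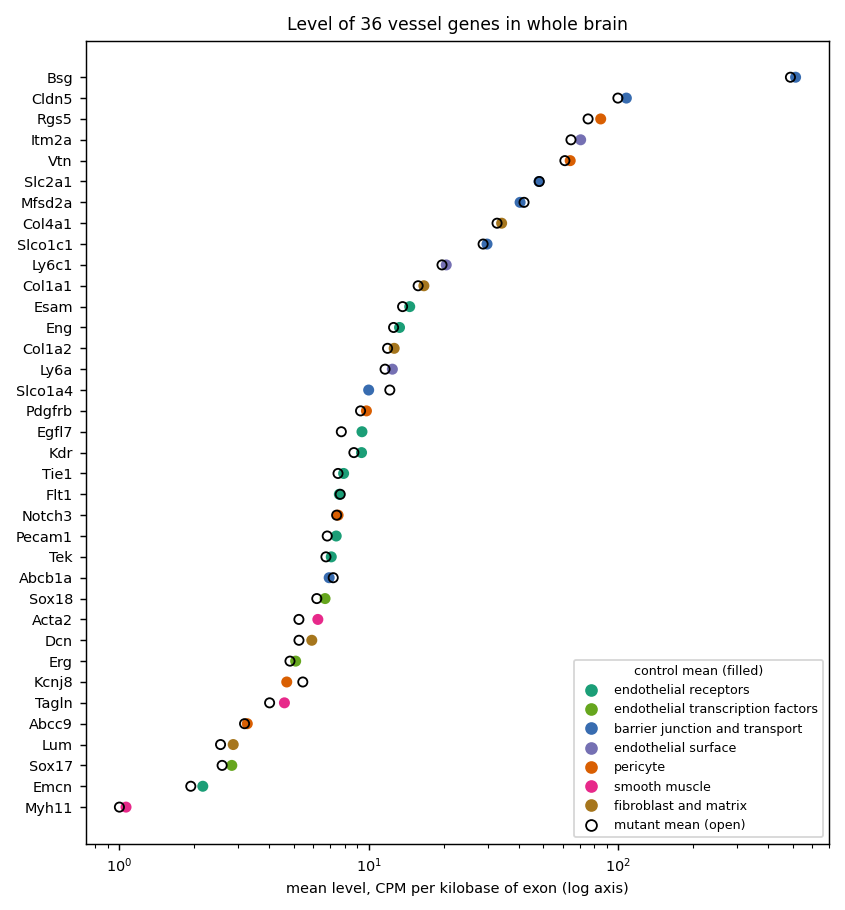
Mean level of each of the 36 vessel genes in CPM per kilobase of exon on a log axis, with control means as filled points coloured by role and mutant means as open circles (3 brains each). Levels run from 1.07 for Myh11 to 513.9 for Bsg in controls, and the filled and open points of a gene lie close to each other at every level.

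No member passed an edgeR adjusted p of 0.05 in either direction, against 105 of the 16731 genes tested (0.628%), of which 0.532% of genes tested were higher and 0.0956% lower in mutants. With the study's further limit of a 2-fold change, 0.359% of all genes and 0 members were called. DESeq2 and limma-voom also put 0 members past that threshold, against 0.468% and 0.586% of all genes. At an unadjusted p under 0.05, 1 member was higher in mutant brains (Slco1a4, against 4.09% of all genes) and 1 lower (Egfl7, against 2.41%). The smallest adjusted p of the 36 was 0.370, for Slco1a4. Differences were small: log2 fold changes ran from -0.27 to 0.28, and the 95% interval of 35 of the 36 members lay within a 1.5-fold change in either direction, as did that of 74.3% of all genes. The exception was Acta2, whose interval reached -0.60. The highest upper limit was 0.51, for Kcnj8. The signs were uneven, since 30 of the 36 log2 fold changes (83.3%) were negative, against 52.4% of all genes, and the members' median was -0.079 against -0.0073 over all genes. The members are read from the same 6 brains and are no independent replicates, so this count of signs carries no test.

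**Figure D2:**
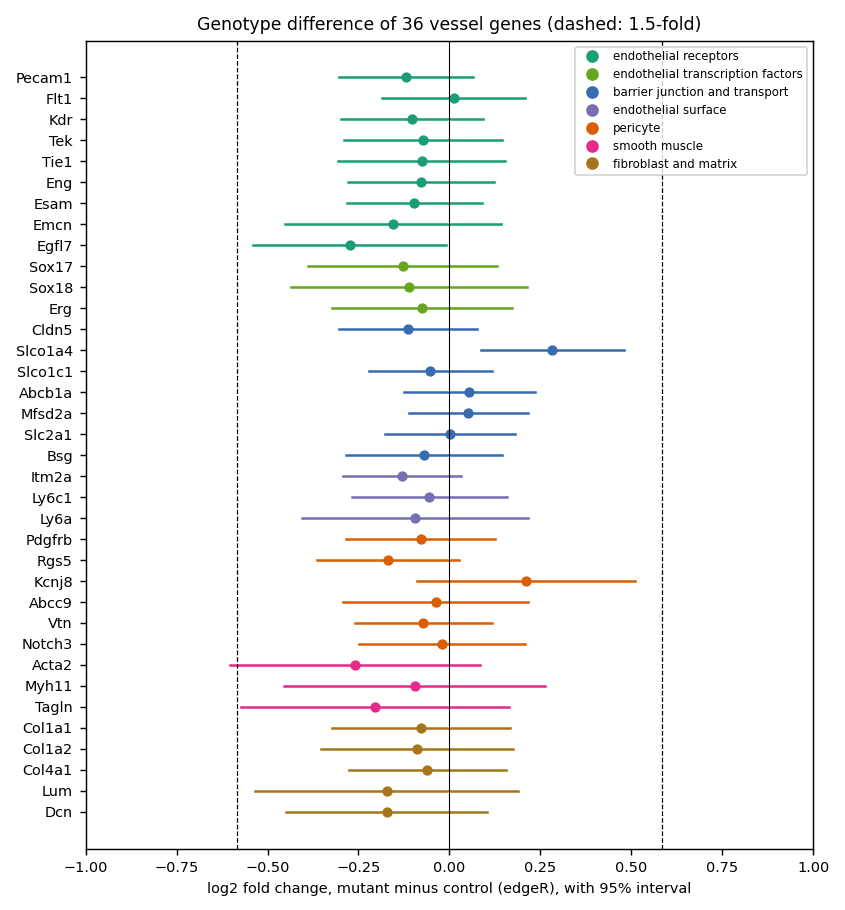
Log2 fold change of each vessel gene, mutant minus control, from the edgeR fit over all genes (points) with its 95% interval (bars), coloured by role, and with dashed lines at a 1.5-fold change. Only the intervals of Slco1a4 and Egfl7 leave out 0, and only that of Acta2 crosses a dashed line.

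The 9 endothelial receptor, adhesion and secreted protein genes were taken first, and their median log2 fold change was -0.096. Flt1 and Kdr encode receptors for vascular endothelial growth factor. Flt1 was at 97.1, 107 and 105 CPM in control and 119, 90.3 and 103 CPM in mutant brains, so that the mutant libraries enclosed the control ones, and its log2 fold change was 0.01 ± 0.09 (SE; edgeR adjusted p 0.996). Kdr was between 78.7 and 89.8 CPM in control and between 70.5 and 90.1 CPM in mutant brains, with -0.10. The angiopoietin receptor gene Tek and its relative Tie1 had -0.073 and -0.077, and Eng, a co-receptor of the TGF-beta family, -0.079. The cell contact genes Pecam1 and Esam were at -0.12 and -0.096. Emcn, most abundant on veins and capillaries, was at 9.91, 14.0 and 11.2 CPM in control and 10.1, 10.2 and 11.2 CPM in mutant brains, with -0.16 ± 0.14 (adjusted p 0.935). All mutant values of Emcn lay within the range of the controls.

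Egfl7 had the most negative log2 fold change of the list. It encodes a secreted protein of endothelial cells, and its gene is the host of the endothelial microRNA miR-126, which polyA counts of 50-base reads do not measure. Egfl7 (ENSMUSG00000026921, chromosome 2, 26580014 to 26593120, plus strand, GRCm38) was at 34.5, 30.5 and 35.97 CPM in control and 22.1, 33.9 and 27.5 CPM in mutant brains. Mutant replicates 1 and 3 were below every control and mutant replicate 2 lay among the controls. The log2 fold change was -0.27 ± 0.13 (SE), with a 95% interval of -0.54 to -0.0086 and an edgeR adjusted p of 0.737. It was -0.14 without mutant replicate 1 and -0.44 without mutant replicate 2. Of its 3581 exonic bases, 337 overlap exons of other genes on the same strand and 122 on the opposite one, and the strand setting of the counting is not given in the sources used here.

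The 3 endothelial transcription factor genes had log2 fold changes of -0.13 for Sox17, -0.11 for Sox18 and -0.076 for Erg. Sox17, which acts in arterial endothelium, was at 12.4, 13.3 and 14.7 CPM in control and 11.99, 11.4 and 13.6 CPM in mutant brains (SE 0.12, edgeR adjusted p 0.941). Its lowest values were those of mutant replicates 1 and 2, and mutant replicate 3 lay within the controls. Erg was at 15.7, 16.9 and 20.4 CPM in control and 16.7, 16.3 and 17.3 CPM in mutant brains (SE 0.12, adjusted p 0.975). The mutant values of Erg fell between those of control replicates 1 and 3, and without control replicate 3 its log2 fold change was 0.04. Of the exonic bases of Sox17, 804 of 4772 lie opposite another gene.

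The median of the 7 barrier genes was a log2 fold change of 0.0028, with 4 positive and 3 negative values. Slco1a4 (ENSMUSG00000030237, chromosome 6, 141805440 to 141856199, minus strand), which encodes an organic anion transporter of brain endothelium, had the largest difference in the list. It was at 59.1, 73.2 and 60.0 CPM in control and 71.6, 79.0 and 83.2 CPM in mutant brains. Mutant replicates 2 and 3 were above every control, and mutant replicate 1 lay just below control replicate 2. The log2 fold change was 0.28 ± 0.09 (SE; 95% interval 0.086 to 0.48; edgeR adjusted p 0.370). Stretches of 50 bases shared with other genes made up 1.61% of its transcripts, in related transporter genes such as Slco1a5.

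Slco1c1, which carries thyroid hormone and lies on the same chromosome, was between 144.5 and 168.7 CPM in control and between 145.1 and 152.6 CPM in mutant brains, with a log2 fold change of -0.052. Cldn5, the main claudin of the brain's tight junctions, was at 163.5, 144 and 150.0 CPM in control and 159, 137 and 127 CPM in mutant brains, with -0.11 ± 0.09 (SE; edgeR adjusted p 0.921). Its mutant replicates 2 and 3 were below every control and mutant replicate 1 was not. Slc2a1, the glucose transporter of the barrier, had the difference nearest to 0 of the whole list, 0.0028, with a 95% interval of -0.18 to 0.18. Mfsd2a, which carries lipids and limits vesicle transport across the endothelium, was at 0.052, and the efflux pump gene Abcb1a at 0.055. Of the 50-base words of Abcb1a, 17.6% are shared with Abcb1b and Abcb4, so its count is uncertain. Bsg was at 1005, 894 and 898 CPM in control and 1007, 833 and 827 CPM in mutant brains, with -0.069 ± 0.10 (adjusted p 0.973).

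Of the 3 endothelial surface genes, Itm2a (ENSMUSG00000031239, chromosome X, 107397099 to 107403376, minus strand) encodes a transmembrane protein that is enriched in brain endothelium. Itm2a was at 118, 123 and 129 CPM in control and 115, 116 and 107 CPM in mutant brains. It was the single member with all mutant libraries below all controls, as were 5.42% of all genes, and 0 members had all of them above, as did 6.23% of all genes. The log2 fold change was -0.13 ± 0.08 (SE; edgeR adjusted p 0.878). Ly6c1 and Ly6a encode lipid-anchored surface proteins of endothelial cells. Ly6c1 was at 36.6, 34.7 and 31.5 CPM in control and 29.5, 36.8 and 32.6 CPM in mutant brains, with -0.055 ± 0.10 (adjusted p 0.9797), and without mutant replicate 1 its sign turned, to 0.02. Ly6a was between 12.96 and 17.3 CPM in control and between 10.9 and 16.4 CPM in mutant brains, with -0.094. Both had their lowest value in mutant replicate 1, the library in which 17 of the 36 members had their highest. Since 32.8% of the words of Ly6c1 and 19% of those of Ly6a occur in each other or in other Ly6 genes, both counts are uncertain.

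The median log2 fold change of the 6 pericyte genes was -0.054. It was -0.17 without mutant replicate 1 and turned positive without control replicate 3 (0.0031), mutant replicate 2 (0.020) or mutant replicate 3 (0.014). Rgs5 encodes a regulator of G protein signalling that is a standard pericyte marker. It was at 351, 379.7 and 429.6 CPM in control and 359, 354 and 319.7 CPM in mutant brains, with -0.17 ± 0.09 (SE; edgeR adjusted p 0.849). Mutant replicate 3 was below every control, and the others lay just above control replicate 1. Kcnj8 and Abcc9 encode the channel and the sulfonylurea receptor subunit of the ATP-sensitive potassium channel of pericytes. Kcnj8 was at 13.1, 10.8 and 11.95 CPM in control and 16.3, 11.1 and 14.3 CPM in mutant brains, with 0.21 ± 0.14 (adjusted p 0.904), and its partner Abcc9 had -0.037. The members of this channel thus had values of opposite sign, neither past the test. Pdgfrb, the receptor through which endothelium recruits pericytes, was at -0.079, Vtn at -0.071 and the Notch receptor gene Notch3 at -0.020.

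The 3 smooth muscle genes had the most negative median of the 7 role groups in the fit of all 6 libraries, -0.20, and the widest spread. Their median was -0.44 without mutant replicate 1 and -0.025 without mutant replicate 3, where that of the transcription factor genes, at -0.21, was more negative. Acta2 (ENSMUSG00000035783, chromosome 19, 34241090 to 34255590, minus strand), which encodes the smooth muscle actin of the contractile apparatus, was at 15.2, 12.8 and 13.2 CPM in control and 15.2, 10.8 and 8.65 CPM in mutant brains. Mutant replicate 1 was level with the highest control, and mutant replicates 2 and 3 were below every control. The log2 fold change was -0.26 ± 0.16 (SE), with a 95% interval of -0.60 to 0.084 and an edgeR adjusted p of 0.897. Tagln, which encodes the actin-binding protein transgelin, was at 9.97, 8.79 and 8.64 CPM in control and 10.4, 7.61 and 5.89 CPM in mutant brains, with -0.20 and the same order of mutant libraries. Of its 1988 exonic bases, 1349 lie opposite exons of Pcsk7 and another gene. Myh11 was at 9.04, 6.81 and 8.44 CPM in control and 9.36, 7.39 and 6.11 CPM in mutant brains, with -0.096 ± 0.17 (adjusted p 0.979). Without mutant replicate 3 the sign of Myh11 turned, to 0.04.

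The 5 fibroblast and matrix genes had a median of -0.089. Col4a1 encodes a chain of the collagen IV of the vascular basement membrane and comes from endothelial cells and pericytes as well as fibroblasts. It was at 235, 258 and 271 CPM in control and 288, 214 and 229.9 CPM in mutant brains, with a log2 fold change of -0.061 ± 0.10 (SE; edgeR adjusted p 0.978). Mutant replicate 1 was above every control and the other mutants were below every control. The fibrillar collagen genes Col1a1 and Col1a2 were at -0.077 and -0.089, and in both of them mutant replicate 1 was the highest of the 6 libraries and mutant replicate 3 the lowest. The small proteoglycan genes Lum and Dcn both had -0.17. Lum was at 5.98, 6.88 and 8.17 CPM in control and 7.36, 6.05 and 5.31 CPM in mutant brains (SE 0.17, adjusted p 0.945).

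Summed over the members of a role, the surface genes were the single group whose libraries did not overlap, at 172.1, 172.3 and 173.4 CPM in control and 155.8, 169.4 and 154.1 CPM in mutant brains. Itm2a made up 71% of that sum over all 6 libraries. The ratio of the mutant to the control mean ran from 0.876 for smooth muscle to 0.974 for the barrier genes. The smooth muscle sum was 34.2, 28.4 and 30.3 CPM in control and 34.9, 25.8 and 20.7 CPM in mutant brains. That of the fibroblast and matrix genes was 515, 584 and 589 CPM in control and 648, 489 and 459.9 CPM in mutant brains. In both, mutant replicate 1 was the highest library of all and mutant replicates 2 and 3 were the lowest, so that the mutant brains differed more among themselves than the group means differed from each other.

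This split of the mutant brains ran through most of the list. The median deviation of the 36 members from each gene's mean over the 6 libraries was -0.027, 0.051 and 0.084 (log2 CPM) in control replicates 1 to 3, and 0.13, -0.11 and -0.12 in mutant replicates 1 to 3. Over all genes tested it lay between -0.0012 and 0.0043 in every library. Mutant replicate 1 was above the control mean for 23 of the 36 members and was the highest library for 17. Mutant replicates 2 and 3 were above the control mean for 5 and 7 members, and they were the lowest library for 10 and 14. The separation was widest for smooth muscle genes, with median deviations of 0.29, -0.14 and -0.50 in the mutant brains, then for fibroblast and matrix genes with 0.22, -0.11 and -0.34 and for pericyte genes with 0.19, -0.17 and -0.12. Endothelial receptors had 0.11, -0.12 and -0.12. The barrier genes were close together, at 0.089, -0.088 and 0.026, while the surface genes, at -0.18, 0.13 and -0.039, and the transcription factor genes, at -0.10, -0.16 and 0.078, did not have mutant replicate 1 as their highest mutant brain.

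**Figure D3:**
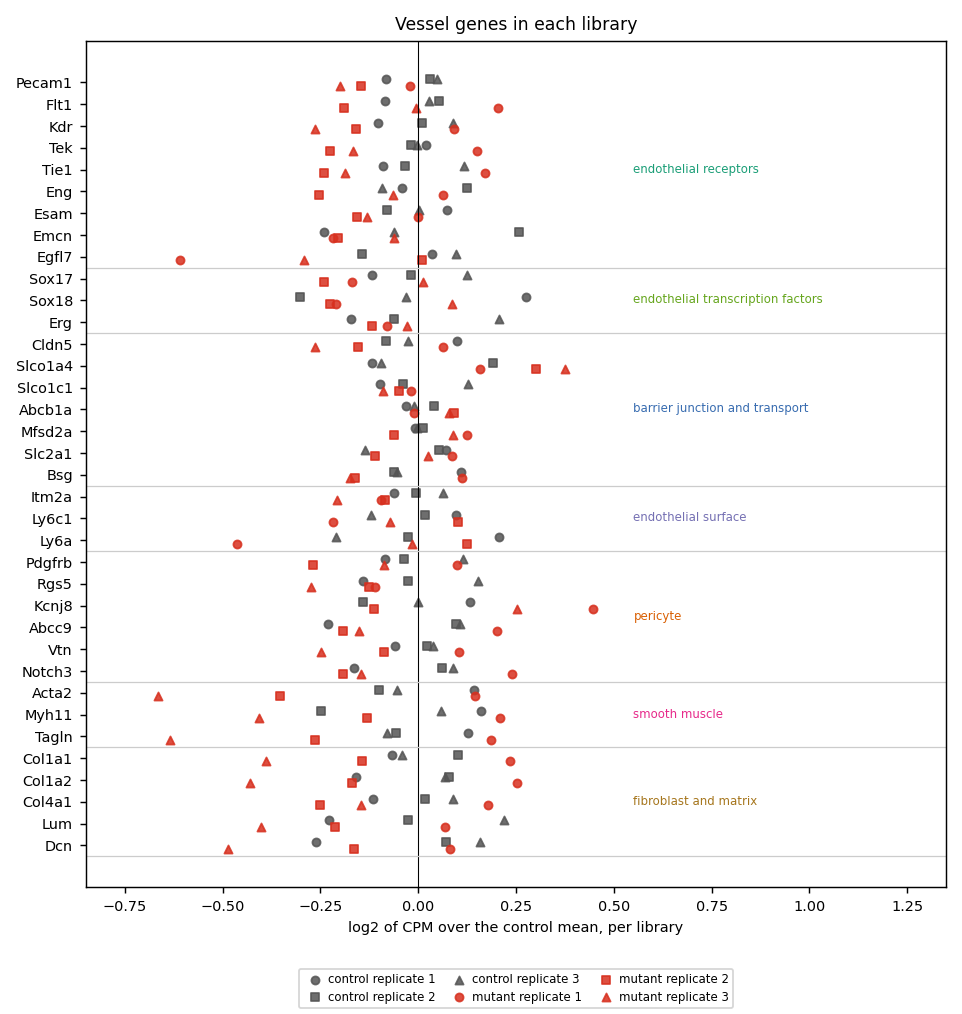
Log2 ratio of each library's CPM to the control mean for every vessel gene, grouped by role, with controls in grey and mutants in red and a marker shape for each replicate number. Mutant replicate 1 (red circles) lies to the right of the control mean for 23 of 36 genes, while mutant replicates 2 and 3 lie to the left for most, and the distance is widest for smooth muscle and fibroblast genes.

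Leaving out mutant replicate 1 moved the members further than leaving out any other library. That fit was 1 of 6 that omit a library, but it was singled out for detail after its values were seen. Mutant replicate 1 was the highest library for 17 members. Leaving it out lowers the mutant level of those members by construction, so the counts from that fit carry no test of genotype. In that fit 0 members passed an edgeR adjusted p of 0.05, against 0.949% of all genes. At an unadjusted p under 0.05, 11 members were lower, against 4.39% of all genes, and 1 was higher (Slco1a4), against 4.72%. The 11 were Kdr, Tie1, Cldn5, Rgs5, Vtn, Acta2, Tagln, Col1a1, Col1a2, Col4a1 and Dcn. They took 2 of 3 smooth muscle genes, 4 of 5 fibroblast and matrix genes, 2 of 6 pericyte genes, 2 of 9 receptors, 1 of 7 barrier genes and none of the transcription factor or surface genes. The members' median was -0.17, against -0.0019 over all genes, and the median of smooth muscle genes -0.44. Acta2 was then at -0.50 with an adjusted p of 0.126, and Slco1a4 at 0.34 with 0.122. Without mutant replicate 3, Acta2 was instead at -0.088, so that its value rested on which mutant brains were counted. In the other 5 fits that omit a library the members' median was between -0.11 and -0.031, at most 2 members were lower and at most 2 higher at an unadjusted p under 0.05, and 0 passed an adjusted p of 0.05. Nothing in the labels sets mutant replicate 1 apart, so the values of all 6 libraries stand as the result.

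**Figure D4:**
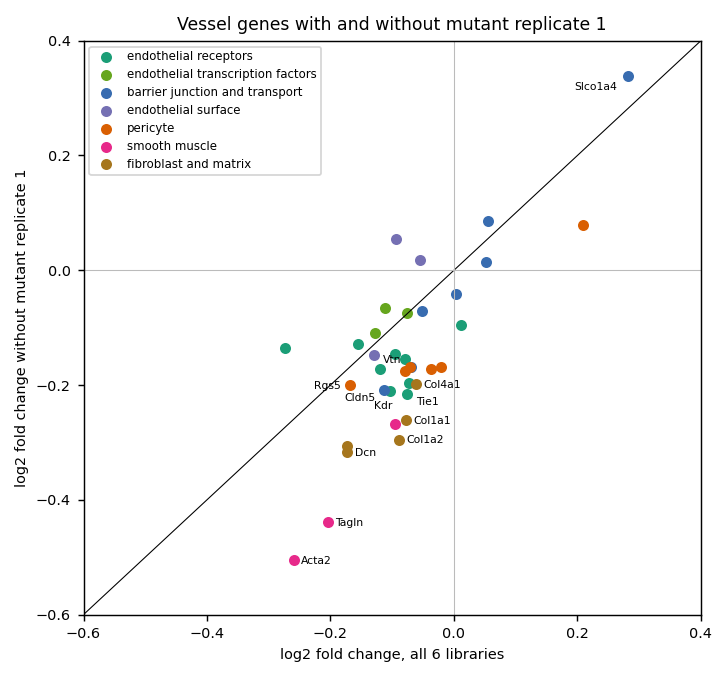
Log2 fold change of each vessel gene in the fit of all 6 libraries (x axis) and without mutant replicate 1 (y axis), coloured by role, with the line of equality and names for genes at an unadjusted p under 0.05 in the second fit. Most points lie below the line, and Acta2 goes from -0.26 to -0.50, while Slco1a4 stays positive. Mutant replicate 1 was the highest library for 17 of these genes, and leaving it out lowers their values by construction.

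Other vessel genes that are not members were read from the same fit. Of 20 further endothelial genes 0 passed an edgeR adjusted p of 0.05, and their median log2 fold change was -0.10. Their median deviations in the mutant brains, -0.0052, -0.034 and -0.080, lacked the high value of mutant replicate 1 seen for the members. The one with the smallest p was Icam2, an adhesion gene, at 7.25, 7.84 and 8.23 CPM in control and 6.56, 4.93 and 5.82 CPM in mutant brains, with -0.43 ± 0.16 (SE; adjusted p 0.486). Of 13 further transport and vesicle genes 0 passed, with a median of -0.016. The smallest p was that of Cav1, which encodes the caveolin of endothelial vesicles. Cav1 was at 27.8, 32.3 and 33.3 CPM in control and 25.0, 24.0 and 21.9 CPM in mutant brains, with no overlap and -0.40 ± 0.10 (adjusted p 0.127). For Cav1, mutant replicate 1 was below every control too, which it was not for Acta2. At an unadjusted p under 0.05, 2 of the 20 endothelial and 3 of the 13 transport and vesicle genes were lower and none was higher, against 2.41% of all genes lower and 4.09% higher.

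The signals that build and maintain the barrier were measured as well. Of 14 genes of the Wnt and norrin pathway, of 14 genes of the VEGF, angiopoietin and Notch systems and of 9 genes of mural cell recruitment, 0 passed an edgeR adjusted p of 0.05. Their medians were 0.017, -0.017 and 0.046. Wnt7b, a neural ligand for barrier endothelium, was at 34.5, 37.1 and 35.0 CPM in control and 48.1, 34.3 and 39.0 CPM in mutant brains, with 0.19 ± 0.11 (SE; adjusted p 0.875). The highest value of Wnt7b was again that of mutant replicate 1. The Notch ligand gene Jag1 had -0.23 (adjusted p 0.805), and Ephb4, which marks veins, had -0.15 (adjusted p 0.927). Of 12 artery, vein and tip cell genes 0 passed, with a median of -0.0035, and Aplnr, the apelin receptor of veins and sprouting vessels, had -0.29 (adjusted p 0.784). In mutant replicates 1 to 3 the median deviations of these 12 genes were 0.19, -0.11 and -0.022. Those of the mural recruitment genes were 0.18, -0.11 and -0.014. Mutant replicate 1 was also the highest library for astrocyte genes (0.14) and neuron genes (0.098), so its high value was not particular to the members.

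Of 13 further mural genes tested 0 passed an edgeR adjusted p of 0.05, with a median of -0.13 and median deviations of -0.025, -0.052 and -0.11 in the mutant brains, and Cnn1 was not tested, with 2 to 7 counts per library. The gene of smallest p was Ndufa4l2, a pericyte gene, at -0.36 (adjusted p 0.802). For 14 basement membrane genes the median was -0.089 and 12 values were negative, with Lama1, a laminin chain of pial and vascular membranes, at -0.28 (adjusted p 0.800). For 14 further fibroblast and meningeal genes the median was -0.11, with Pcolce, which enhances collagen processing, at -0.32 (adjusted p 0.697). At an unadjusted p under 0.05, 1 of the 14 fibroblast and meningeal genes was lower (Pcolce), and 0 of the mural, basement membrane, artery and vein and signalling genes were higher or lower. The meningeal genes differed most among the controls, with median deviations of -0.25, 0.16 and 0.25, and in mutant replicates 1 to 3 they had 0.0049, 0.0019 and -0.14.

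Markers of other cells moved with some of these libraries, and their part in the vessel values was not tested. Oligodendrocyte markers summed to between 21890 and 26220 CPM in control and between 17340 and 20110 CPM in mutant brains. All 8 were lower at an unadjusted p under 0.05, against 2.41% of all genes, and 6 had all mutant libraries below all controls, against 5.42% of all genes. Of the 8, 3 fell past an edgeR adjusted p of 0.05, against 0.0956% of all genes, namely the myelin genes Mal (-0.53, adjusted p 0.0241), Mog (-0.49, adjusted p 0.0351) and Cldn11 (-0.49, adjusted p 0.0496), and none of the 8 was at 0. No gene of these other lists passed in the fits that left out mutant replicate 3 or control replicate 1 or 2. The oligodendrocyte markers' median deviation was lowest in mutant replicate 3, at -0.48, the library in which smooth muscle and fibroblast genes were also lowest. Of 8 choroid plexus markers, 0 passed (1 at an unadjusted p under 0.05, Ttr). Their sum was between 1465 and 1761 CPM in control and between 1086 and 1299 CPM in mutant brains. Over all 6 libraries 94% of it was Ttr. Ttr had -0.45 with an adjusted p of 0.0764. Of 6 genes of red blood cells, 0 passed (0 at an unadjusted p under 0.05), with sums of between 335 and 409 CPM in control and between 329 and 417 CPM in mutant brains. Their median deviation was highest in mutant replicate 1, at 0.37, the library that was the highest for 17 of the 36 vessel genes.

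**Figure D5:**
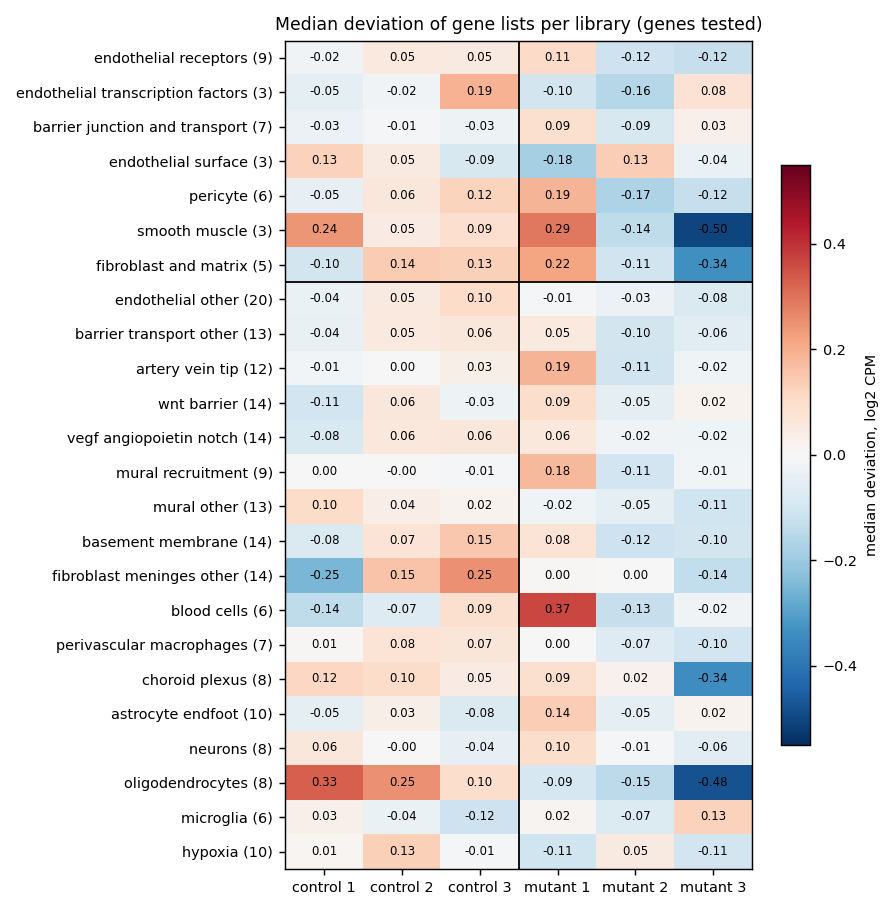
Median deviation (log2 CPM) of each gene list from the mean over all 6 libraries, with one column per brain and the number of genes tested in brackets; the upper 7 lists are the vessel members by role and the lower ones are other lists. Smooth muscle genes go from 0.29 in mutant replicate 1 to -0.50 in mutant replicate 3, red blood cell genes peak in mutant replicate 1 at 0.37, and oligodendrocyte genes are below their mean in every mutant brain.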

How the data were processed

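RNA of 6 whole mouse brains was measured. Per the labels and the study's methods, polyA RNA was made into libraries and read from 1 end for 50 bases. The authors then ran Trim Galore 0.5.0, removed abundant sequences with Bowtie2 2.3.4.1, aligned to GRCm38 with STAR and counted with featureCounts (Subread 1.6.2). They deposited raw counts of 54532 gene identifiers. The strand setting was not given in the sources used here.

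Counts were tested with edgeR 4.0.16 (R 4.3.3): filterByExpr, TMM, the quasi-likelihood F test on genotype alone and Benjamini-Hochberg adjustment over 16731 genes. A gene was called at an adjusted p under 0.05. SEs were derived from the F statistic and 95% intervals from its degrees of freedom. CPM uses the effective library size, and deviations use log2 CPM with a prior count of 2. Symbols, exonic lengths and overlaps came from GENCODE M21 (54495 identifiers matched), and 50-base words of transcripts were searched in other genes. Promoter sequence was available for 24 of 36 members. Steps were tested on simulated data.

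Alternatives were RLE, DESeq2 1.42.0, limma-voom (limma 3.58.1), no filter, a minimum of 1 CPM in 3 libraries, each library left out, the replicate number as a block, a fold over 2 and, chosen after seeing the data, removal of a length trend per library (loess span 0.3). Full values were given by rule for the 5 members of smallest p, the extreme log2 fold changes of each role group and the 3 highest and 3 lowest levels per length. The gene of smallest p was named in each other list except that of red blood cells, in part with only its log2 fold change and adjusted p. Others were named after their values were seen. The members, lists and tests were chosen with earlier results of these data known. The study calls the control and mutant brains littermates but does not say which mice shared a litter, so litter was not modelled. Each library is a separate mouse. The p-values weigh the genotype difference against the spread between these mice, which edgeR estimates in part from all genes tested.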

Additional observations from a re-analysis of the deposited data

How the results depend on the processing

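No vessel gene passed an adjusted p of 0.05 under any of the 13 alternative fits or with a fold over 2 as well, and the members' median log2 fold change stayed negative in all of them. Over all genes 105 were called, against 242 when low counts were not filtered, 60 with a fold over 2 and 66 to 162 when 1 library was left out, the most without mutant replicate 1. Called genes in the other lists numbered 3, against 7 with DESeq2, 7 with no filter, 0 with a fold over 2 and 0 to 5 without 1 library. Signs turned for 5 of the members given full values by rule. Of the other members, Ly6a (0.055) and Slc2a1 (-0.042) also turned without mutant replicate 1. Further members, not named here, turned in other fits that omit a library. Negative values numbered 30 with all 6 libraries, 25 without mutant replicate 2 and 25 without mutant replicate 3. In the fits that omit a library, 25 to 30 of the 36 values were negative. Without 1 library, the log2 fold change ranged from -0.095 (without mutant replicate 1) to 0.10 for Flt1, which was also at -0.030 without control replicate 1 and at -0.0063 with the length trend removed. It ranged from -0.16 to 0.043 (without control replicate 3) for Erg, from -0.14 to 0.017 (without mutant replicate 1) for Ly6c1, from -0.27 to 0.042 (without mutant replicate 3) for Myh11 and from -0.20 to 0.024 (without mutant replicate 2) for Col4a1. None of these was past the test in any fit. The deviations of libraries with the same number had correlations of 0.10, -0.047 and 0.080. These cannot show whether mice shared a litter, since the replicate number need not follow litters. With the replicate block 124 genes were called, 0 of them members, and the members' median was -0.089. With the length trend removed 113 genes were called and the members' median was -0.074. The causes were not tested. Without 1 library, the medians of the barrier genes (-0.042 to 0.038), surface genes (-0.15 to 0.017) and pericyte genes (-0.17 to 0.020) also changed sign, and DESeq2 gave -0.00055 for the barrier genes. The median half-width of the members' 95% intervals was 1.16-fold, which is the precision that 3 brains a group gave.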

Other observations

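Cell types that touch the vessels were also measured. Of 10 genes of astrocytes and their endfeet, 0 passed an edgeR adjusted p of 0.05, with a median log2 fold change of 0.083. Aldh1l1, an enzyme gene of astrocytes, was at 164, 174 and 155 CPM in control and 226, 175 and 190.6 CPM in mutant brains, with 0.26 ± 0.09 (SE; adjusted p 0.465). All its mutant libraries lay above all controls, as for 2 of the 10 astrocyte genes and 6.23% of all genes. Of 7 genes of perivascular macrophages 0 passed, with a median of -0.10 and Pf4, a chemokine gene, at -0.42 (adjusted p 0.811). Of 6 microglia genes 0 passed, with a median of 0.062, and Csf1r, the receptor on which these cells depend, was at 0.15 (adjusted p 0.871). Of 8 neuron genes 0 passed, with a median of -0.035 and Gad2, which makes the transmitter GABA, at 0.21 (adjusted p 0.573). Of 10 genes known to respond to low oxygen 0 passed, with a median of -0.17 and Ndrg1, which is also made by oligodendrocytes, at -0.34 (adjusted p 0.470). Vegfa, the oxygen-regulated growth factor of vessels, was at 105, 109.3 and 112 CPM in control and 99.4, 107 and 101 CPM in mutant brains, with -0.083. At an unadjusted p under 0.05, the genes of these lists were Aldh1l1 and Gad2, both higher, and Ndrg1, lower.

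Slc38a5, an amino acid transporter gene of brain endothelium named after its values were seen, had all mutant libraries below all controls, at 19.4, 17.4 and 19.1 CPM in control and 16.1, 15.6 and 13.1 CPM in mutant brains, with -0.32 ± 0.11 (SE; edgeR adjusted p 0.455). All mutant libraries were below all controls for 2 of the 20 further endothelial genes (Icam2 and Ramp2). The same held for 2 of the 13 transport and vesicle genes (Cav1 and Slc38a5), against 5.42% of all genes. It was not particular to these lists. It also held for 3 of the 13 further mural genes tested. In the VEGF, angiopoietin and Notch list it held for 1 of 14, and in the fibroblast and meningeal list for 1 of 14. The Wnt, mural recruitment, artery and vein and basement membrane lists had 0. In all of these lists 0 genes had all mutant libraries above all controls, against 6.23% of all genes.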
